A study of Homo sapiens with 6 samples.

Results

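VGF is a secreted neuropeptide precursor of the extended granin family. The expression of VGF and of 7 other granin and prohormone processing genes was examined in HepG2 cells, an established human line from a liver cancer. The granins were VGF, CHGA, CHGB and SCG2, and the processing genes were SCG5, PCSK1, PCSK1N and CPE. These 8 genes, of 57500 counted, were matched by Ensembl identifier. They were chosen with the glycine response of VGF already known, so every value of the 8 genes under glycine is a description and carries no test.

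The study counted messenger RNA by sequencing in wild-type HepG2 cells kept for 24 h with vehicle or with 10 mM glycine. There were 3 libraries in each group, which the submitters describe as independent replicates. All libraries came from 1 cancer line, and the standard culture medium of the vehicle group itself holds glycine. The libraries held between 31795489 and 58815986 counts, so that 1 count was worth 0.0170 to 0.0314 CPM, counts scaled to a common library size. The 10 most abundant genes took 6.73% to 7.69% of the counts, and mitochondrial transcripts 1.94% to 2.82%. These are bulk RNA values, in which more expressing cells and more RNA per cell cannot be told apart.

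In neurons and endocrine cells, granins are packed with peptide hormones into dense-core vesicles and help to form them. Within the vesicle, a prohormone convertase such as the product of PCSK1 cuts the precursor after basic residues, and carboxypeptidase E, the product of CPE, trims the basic residues left at the new end. The product of PCSK1N, proSAAS, inhibits that convertase, and the product of SCG5 is a chaperone of the related convertase made from PCSK2. VGF is best known as a gene of neurons and endocrine cells, where nerve growth factor and cyclic AMP induce it. A cyclic AMP response element (CRE) in its promoter is bound by the transcription factor CREB. Hepatocytes secrete mainly through the constitutive route.

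Promoter windows, running from 250 bases before to 50 bases after a transcription start, were taken from RefSeq (GRCh38.p14) for 6 of the 8 genes, with 2 windows for PCSK1. The windows were searched on both strands for the CRE, TGACGTCA, which reads the same on either strand, and for its half-site, TGACG or CGTCA. The full element was found in the windows of VGF, CHGA and 1 of the 2 of PCSK1. Among all 35116 windows of this length, 1.85% held it. This share is by window, and a gene can have several. By gene, 414 of the 11016 genes with a window and enough reads to be tested held it, the 8 genes left out. The stretches around the element are shown because they are the sequence feature that these 3 genes share, with the element in capitals and each read 5′ to 3′ on the strand of the gene. VGF lies on the minus strand and its stretch is chr7:101165611-101165678, upstream of the annotated gene. The stretch of CHGA is chr14:92923085-92923114 on the plus strand, in the annotated 5′ UTR of GENCODE release 29. That of PCSK1 is chr5:96433288-96433355 on the minus strand, within an intron of the annotated gene.
VGF: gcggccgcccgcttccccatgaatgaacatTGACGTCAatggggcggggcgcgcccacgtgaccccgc
CHGA: ggcggcaccgcTGACGTCAtttccggggtc
PCSK1: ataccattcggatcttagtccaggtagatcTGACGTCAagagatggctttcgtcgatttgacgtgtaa

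Counted from the RefSeq start site, the element spanned -79 to -72 in VGF, -54 to -47 in CHGA and -77 to -70 in PCSK1. Each full element contains 2 overlapping matches to the half-site. The PCSK1 window held 1 further half-site, at -49 to -45. The CPE window held 2 half-sites, at -221 to -217 and at -120 to -116, and the SCG5 window held 1, at -17 to -13. These letters were not present in the PCSK1N window or in the other PCSK1 window. The half-site, within a full element or by itself, was present in 24.6% of all windows. A match is a run of letters and not a measured binding site.

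**Figure D1:**
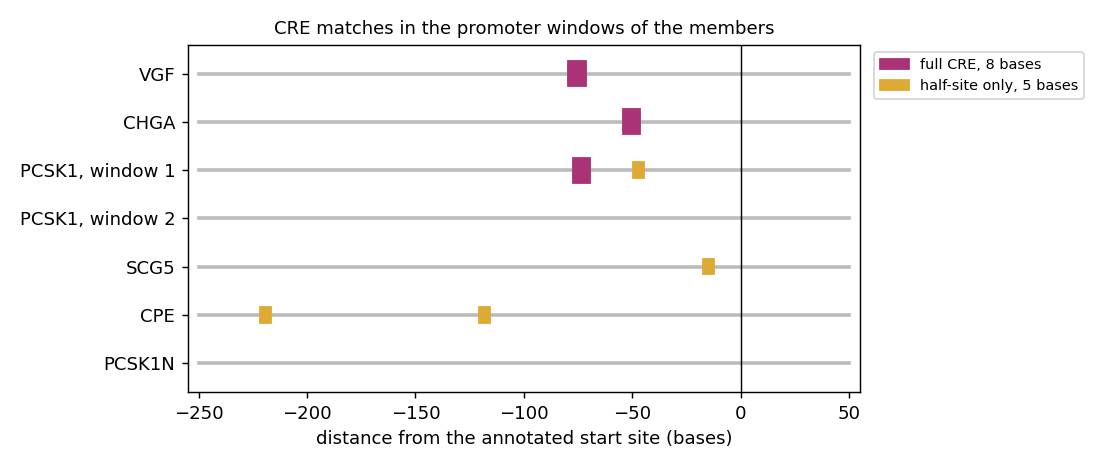
Matches to the CRE in the RefSeq promoter windows, plotted by distance in bases from the transcription start, with 1 row for each window. The full element lies between 47 and 79 bases before the start in VGF, CHGA and the first PCSK1 window, and the SCG5 and CPE windows hold half-sites.

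VGF was the member with the largest rise. It is annotated at chr7:101162509-101165593 (ENSG00000128564, GRCh38), and none of its exon bases is shared with another gene. VGF stood at 9.27, 11.9 and 9.59 CPM in vehicle replicates 1 to 3, from 325, 417 and 345 counts. With glycine it stood at 51.1, 62.1 and 49.3 CPM, from 1632, 3635 and 2081 counts. All glycine libraries lay above all vehicle libraries, and the gap between the groups was wider than the spread within either. The mean went from 10.3 ± 1.46 to 54.1 ± 6.93 CPM (SD, n = 3 each), a 5.27-fold ratio and a log2 difference of 2.40 ± 0.111 (s.e.). By log2 change, VGF was at rank 3 of 15492 tested genes, and at rank 1 of the 9111 that averaged 10 CPM or more. The median absolute log2 change over all tested genes was 0.14.

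CHGB, chromogranin B, was the other granin with enough reads to be fitted. The gene lies at chr20:5911430-5925361 (ENSG00000089199). It stood at 2.48, 1.12 and 2.39 CPM with vehicle and at 4.38, 4.78 and 3.65 CPM with glycine. The groups did not overlap, and vehicle replicate 2 was the lowest library. The mean went from 2.0 ± 0.763 to 4.27 ± 0.576 CPM (SD, n = 3 each), a log2 difference of 1.10 ± 0.222 (s.e.). Without vehicle replicate 2 the log2 change was 0.82.

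Of the 8 genes, 4 passed the filter on low counts: VGF, CHGB, PCSK1N and CPE. VGF and CHGB were among the genes called higher at an edgeR adjusted p under 0.05, as were 6.71% of the 15492 tested genes (13.3% were called in either direction). Both also had glycine libraries that all lay above the vehicle libraries, as did 17.2% of tested genes. Since the genes were chosen on this contrast, nothing is read from these counts. PCSK1N and CPE were not called, and their groups overlapped.

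**Figure D2:**
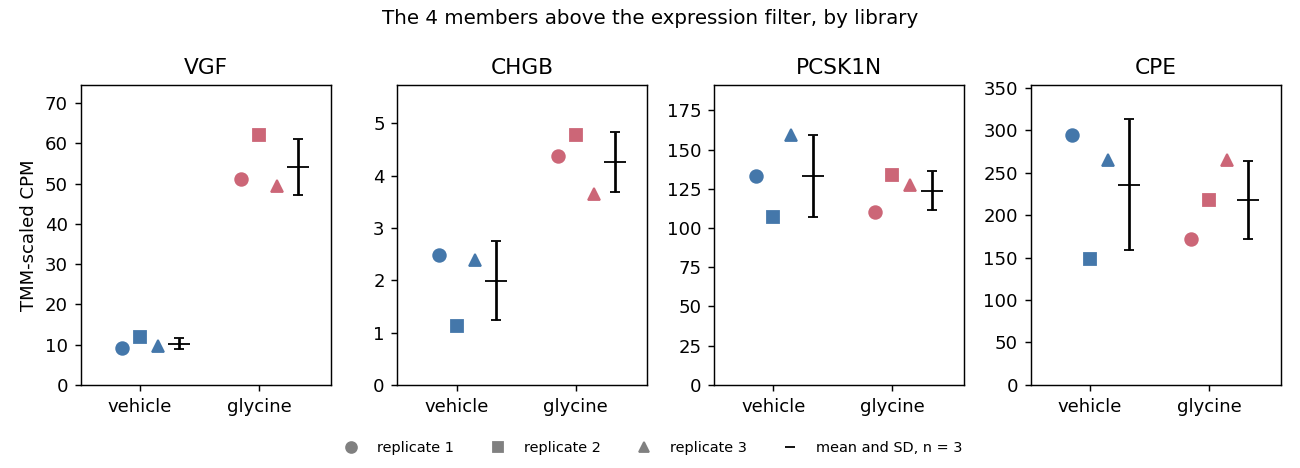
Expression in CPM of the 4 members that passed the low-count filter, with 1 point for each library and the mean ± SD of the 3 libraries of a group, on axes that start at 0. VGF and CHGB separate by group, whereas the vehicle and glycine points of PCSK1N and CPE lie over each other.

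CHGA, chromogranin A, the most widely used marker protein of neuroendocrine cells, was close to the counting limit. It lies at chr14:92923080-92935293 (ENSG00000100604). Vehicle replicates 1 to 3 had 2, 0 and 5 counts, and glycine replicates 1 to 3 had 12, 9 and 8. Scaled to the libraries, these were 0.0570, 0 and 0.139 CPM against 0.376, 0.154 and 0.189 CPM. Every glycine library was above every vehicle library, but glycine replicate 2 was only slightly above vehicle replicate 3. A level of 3 counts corresponds to 0.0510 to 0.0943 CPM, and the gene was below the filter, so no change was estimated.

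SCG2, secretogranin II, was near zero. It lies at chr2:223596940-223602503 (ENSG00000171951) and had 2 counts in vehicle replicate 1 and 0 in each of the other 5 libraries. In any of those 5 libraries a count of 0 allows a level of up to 3 counts, and no difference was detectable at this depth.

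The convertase gene PCSK1 was near zero as well. At chr5:96390415-96434143 (ENSG00000175426), it had 2, 1 and 0 counts with vehicle and 1, 3 and 2 with glycine. SCG5, at chr15:32641676-32697098 (ENSG00000166922), had 3, 6 and 6 counts with vehicle and 4, 8 and 8 with glycine. The groups overlapped for both genes, and neither passed the filter. An antisense gene, SCG5-AS1, covers 0.501% of the exon bases of SCG5. PCSK2, the convertase that the SCG5 product serves, had 3 counts over all 6 libraries.

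**Figure D3:**
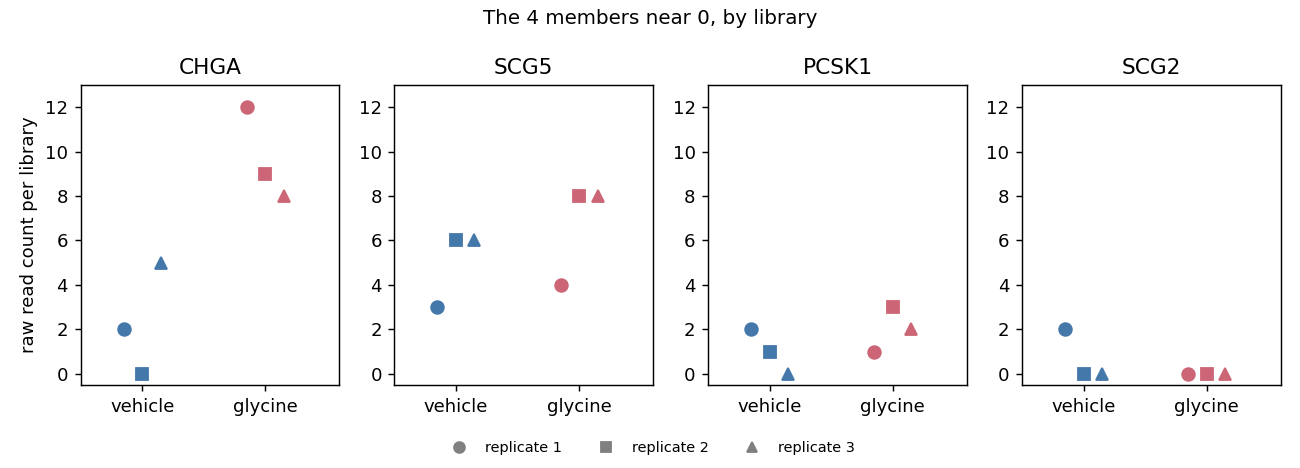
Raw counts in each library of the 4 members below the low-count filter, CHGA, SCG5, PCSK1 and SCG2. CHGA has between 8 and 12 counts in the glycine libraries against 0 to 5 in the vehicle libraries, and the 2 groups of libraries overlap for the other genes.

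PCSK1N, which encodes the convertase inhibitor proSAAS, was abundant. It lies at X:48831094-48835633 (ENSG00000102109). It stood at 133, 107 and 159 CPM with vehicle and at 110, 134 and 127 CPM with glycine. The glycine libraries lay within the range of the vehicle libraries, whose replicates 2 and 3 were the extremes. The means were 133 ± 26.1 and 124 ± 12.2 CPM (SD, n = 3 each), with a log2 difference of -0.10 ± 0.116 (s.e.). The sign turned without vehicle replicate 3, which gave 0.04.

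CPE, the carboxypeptidase gene, had the highest CPM of the 8 genes. It lies at chr4:165361194-165498320 (ENSG00000109472). CPE stood at 295, 148 and 265 CPM with vehicle and at 172, 218 and 265 CPM with glycine. Vehicle replicate 2 was the lowest library of all and the groups overlapped. The means were 236 ± 77.3 and 218 ± 46.4 CPM (SD, n = 3 each), with a log2 difference of -0.11 ± 0.199 (s.e.). The sign turned without vehicle replicate 1 (0.07) and without glycine replicate 1 (0.02).

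CPE varied more between replicates than nearly all genes of its abundance. Its coefficient of variation was 32.8% with vehicle and 21.3% with glycine, against medians of 5.73% and 4.52% over the 2240 genes that averaged 100 CPM or more. Counting CPE itself, 2 of these genes were as variable as CPE or more in the vehicle group and 4 in the glycine group. The coefficient for PCSK1N was 19.6% with vehicle and 9.85% with glycine. For VGF it was 14.2% and 12.8%.

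The deviations of CPE from its group means ran alongside those of several abundant secreted or membrane proteins of the line. Vehicle replicate 2 and glycine replicate 1, the lowest libraries of their groups for CPE, were also the lowest for AFP, alpha-fetoprotein. AFP stood at 2567, 1358 and 2287 CPM with vehicle and at 1309, 1588 and 2046 CPM with glycine. Over the 6 libraries, the Pearson correlation of the deviations with those of CPE was 0.996 for AFP, 0.995 for ALB (albumin) and 0.804 for PCSK1N. It was -0.36 for SERPINA1 and -0.48 for APOB, so the pattern was not shared by all hepatocyte products. The highest value was that of APLP2, at 0.999. These genes were named after their values were seen, the points share their libraries, and the coefficients are descriptions without a p-value.

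To compare levels between genes, the counts were divided by the gene length in the files and expressed as TPM, a share of all transcripts scaled by length. On this scale the order with vehicle was PCSK1N at 342 ± 69.9, CPE at 280 ± 98.2, VGF at 13.2 ± 1.54 and CHGB at 1.55 ± 0.619 TPM (SD, n = 3 each). PCSK1N and CPE overlapped each other, VGF was below both in every library, and CHGB was below VGF. SCG5 was at 0.223 ± 0.0716 TPM, CHGA at 0.0739 ± 0.0779, SCG2 at 0.0252 ± 0.0437 and PCSK1 at 0.0190 ± 0.0194 TPM, and the levels of these 4 genes overlapped from one gene to the next in that order.

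With glycine the first 4 places were unchanged in order. PCSK1N was at 320 ± 25.4, CPE at 260 ± 58.1, VGF at 70.3 ± 6.16 and CHGB at 3.31 ± 0.354 TPM (SD, n = 3 each), and PCSK1N and CPE again overlapped. CHGA and SCG5 followed at 0.274 ± 0.142 and 0.242 ± 0.0602 TPM and overlapped each other. PCSK1 stood at 0.0286 ± 0.00646 TPM and SCG2 was at 0 in all glycine libraries.

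Summed over the 8 genes, the level was 727, 453 and 730 TPM with vehicle and 571, 660 and 730 TPM with glycine, and the groups overlapped. The share held by VGF was 1.70%, 3.31% and 1.68% with vehicle and 11.9%, 11.7% and 9.01% with glycine. PCSK1N transcripts outnumbered VGF transcripts by 28.6, 17.8 and 33 to 1 in the vehicle libraries. With glycine these TPM ratios were 4.28, 4.28 and 5.13. In every library, therefore, the inhibitor transcript was more abundant than the VGF transcript, while PCSK1 was close to the counting limit.

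**Figure D4:**
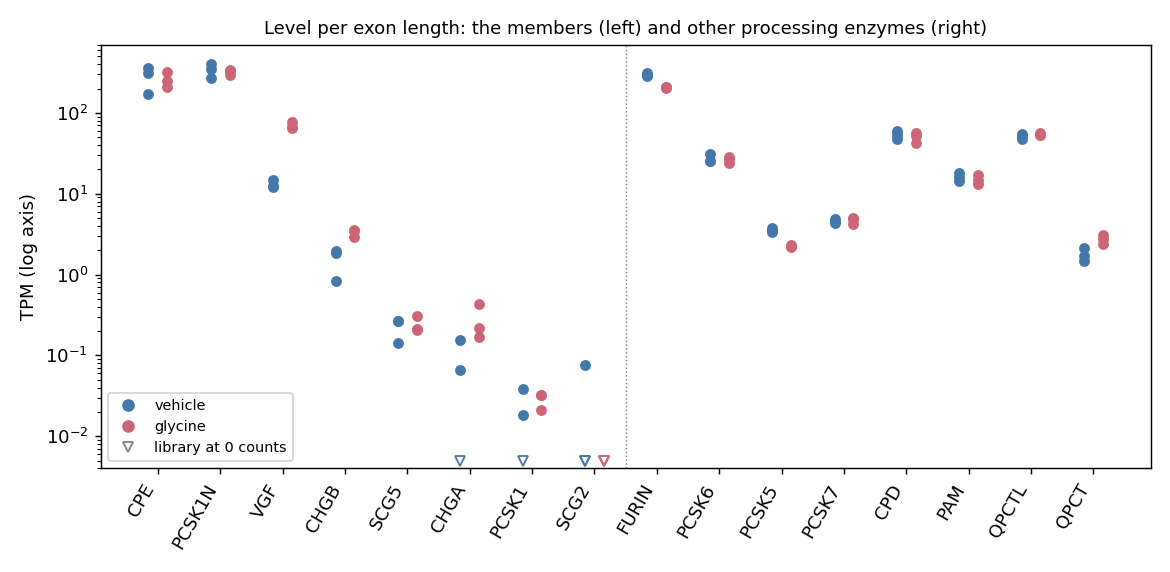
TPM on a log axis for the 8 members (left) and for 8 other convertase, trimming and end-modifying enzyme genes (right), with 1 point for each library and open triangles for libraries at 0. PCSK1N and CPE are between 170 and 405 TPM, VGF moves from 13.2 to 70.3 TPM on average, and PCSK1 and SCG2 lie near 0 while FURIN is above 200.

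Other enzymes that could act on a precursor were then examined in a list of 17 further granin, convertase and trimming genes. Of these, 13 were tested with edgeR: 2 fell, FURIN and PCSK5, and 11 were not called. DESeq2 called 3 lower, the third being MBTPS1, a convertase of the early secretory route (log2 difference -0.19 ± 0.0624 s.e., edgeR adjusted p = 0.0578), whose groups did not overlap. The median log2 difference of the 13 was -0.12, against 0.00 over all tested genes, and 6.54% of all tested genes were called lower. At an unadjusted p under 0.05 the edgeR test gave 1 higher and 4 lower. The share of all tested genes under that unadjusted p was not counted. Nothing is therefore read from such counts, here or for the lists below. SCG3, PCSK2, CPM and CPZ were too low to test.

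FURIN, the ubiquitous convertase of the constitutive route, stood at 406, 408 and 392 CPM with vehicle and at 274, 295 and 266 CPM with glycine. The groups did not overlap, as was so in this direction for 14.4% of tested genes, and the log2 difference was -0.53 ± 0.0656 (s.e., edgeR adjusted p = 0.000152). Per length, FURIN was at 297 ± 11.5 TPM with vehicle and at 207 ± 3.71 TPM with glycine (SD, n = 3 each). PCSK5, a related convertase, went from 12.9 ± 0.468 to 8.09 ± 0.18 CPM (SD, n = 3 each), a log2 difference of -0.67 ± 0.0833 (s.e., edgeR adjusted p = 0.00016).

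Of the enzymes that finish peptides, PAM, which amidates their ends, had a log2 difference of -0.11 ± 0.0830 (s.e., edgeR adjusted p = 0.437), and QPCT, a glutaminyl cyclase, one of 0.61 ± 0.194 (s.e., edgeR adjusted p = 0.0538).

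Of 20 genes of the dense-core vesicle machinery, 15 were tested with edgeR, and 1 fell (6.67%, against 6.54% of all tested genes called lower). That gene was HID1, which takes part in the formation of these vesicles at the trans-Golgi network. It stood at 23.4, 28.1 and 25.6 CPM with vehicle and at 12.9, 13.1 and 13.4 CPM with glycine, without overlap (14.4% of tested genes were lower without overlap; log2 difference -0.97 ± 0.0821 s.e., edgeR adjusted p = 6.35e-06). The median over the 15 genes was 0.03, and at an unadjusted p under 0.05 there were 3 higher and 3 lower. DESeq2 also called CADPS2, a vesicle priming factor, lower, while edgeR gave it a log2 difference of -0.23 ± 0.0766 (s.e., adjusted p = 0.0646), without overlap of the groups. EIPR1, with the highest TPM of the list, had a log2 difference of 0.05 ± 0.0657 (edgeR adjusted p = 0.659).

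Most other cargo genes were scarce. Of 32 peptide precursor genes, 26 were too low to test, among them POMC, INS, GCG, NPY and SST. The edgeR, DESeq2 and limma tests each called 0 of the other 6, and each gave 1 at an unadjusted p under 0.05. The most abundant per length was NMB, neuromedin B, at 62.3 ± 4.46 TPM with vehicle and 58.0 ± 4.22 TPM with glycine (SD, n = 3 each; log2 difference -0.11, edgeR adjusted p = 0.426). VGF was below NMB in every vehicle library and above it in every glycine library. With vehicle, the precursor genes ADM2 and ADM averaged 12.9 and 8.65 TPM, beside 13.2 TPM for VGF.

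Of 3 proteins proposed as receptors of VGF peptides, C3AR1 had 5 counts in all. The edgeR test called 0 of the other 2, and 0 at an unadjusted p under 0.05, where DESeq2 and limma each gave 1 (0 after adjustment). The more abundant was HSPA8, a cytosolic chaperone, with a log2 difference of 0.13 ± 0.0705 (edgeR adjusted p = 0.247). That of C1QBP was 0.10 ± 0.0637 (s.e., edgeR adjusted p = 0.35). For HSPA8 and C1QBP, all glycine libraries lay above all vehicle libraries, as was so for 17.2% of tested genes.

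Because VGF carries a CRE, genes known to respond to cyclic AMP and CREB in hepatocytes or neurons were described next. Of 12 such genes, 8 were tested with edgeR and 4 fell, against 6.54% of all tested genes, with a median log2 difference of -0.30. None of the 8 was called higher by edgeR, DESeq2 or limma, and 0 were higher at an unadjusted p under 0.05. The 4 that fell were PCK1, PDE4D, PPARGC1A and NR4A1. The windows of PDE4D, PPARGC1A and NR4A1 did not hold the full element, and PCK1 had no window. The part of cyclic AMP or CREB in the change of VGF was not tested. CREM, which had the highest TPM of the list, averaged 15.1 ± 1.25 CPM in the vehicle libraries and 15.6 ± 1.22 CPM in the glycine libraries (SD, n = 3 each; edgeR adjusted p = 0.756).

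PCK1, the gluconeogenic enzyme phosphoenolpyruvate carboxykinase, stood at 2.17, 1.69 and 1.53 CPM with vehicle and at 0.564, 0.683 and 0.639 CPM with glycine (log2 difference -1.49 ± 0.212 s.e., edgeR adjusted p = 0.000471). For PDE4D, a phosphodiesterase that degrades cyclic AMP, the log2 difference was -0.63 ± 0.102 (s.e., edgeR adjusted p = 0.00122). For PPARGC1A, a coactivator of gluconeogenic genes, it was -0.43 ± 0.0994 (s.e., edgeR adjusted p = 0.0125, and 0.0504 and 0.0506 without vehicle replicate 1 or glycine replicate 2). For NR4A1, an orphan nuclear receptor whose groups overlapped and whose exon bases are covered to 10.3% by the antisense NR4A1AS, it was -0.41 ± 0.123 (s.e., edgeR adjusted p = 0.043). The NR4A1 call was lost without vehicle replicate 2, vehicle replicate 3, glycine replicate 1 or glycine replicate 2 (edgeR adjusted p = 0.0725, 0.126, 0.113 and 0.164).

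Of 11 regulators of this route, all were tested and 2 fell (18.2%, against 6.54% of all tested genes called lower). At an unadjusted p under 0.05, 0 were higher in edgeR, DESeq2 or limma. Those that fell were the CREB coactivators CRTC1 and CRTC3. Their log2 differences were -0.31 ± 0.0769 and -0.30 ± 0.0721 (s.e., edgeR adjusted p = 0.0187 and 0.0146). CRTC1 lost its call without vehicle replicate 3, glycine replicate 2 or glycine replicate 3 (edgeR adjusted p = 0.0615, 0.0732 and 0.0621), and CRTC3 without glycine replicate 2 (0.0598). CREB1 itself had a log2 difference of -0.05 ± 0.0794 (edgeR adjusted p = 0.757), PRKACA, the kinase subunit with the highest TPM of the list, one of -0.09 ± 0.0725 (edgeR adjusted p = 0.49), and REST, which represses neuronal genes outside the nervous system, one of -0.24 ± 0.114 (edgeR adjusted p = 0.192).

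The identity of the cells was checked with marker lists beside the rise of VGF. All 8 hepatocyte markers were tested, and their summed level was 27239 to 31362 CPM with vehicle and 23653 to 27237 CPM with glycine. Their median log2 difference was -0.23, and 7 of the 8 values were below 0. At an unadjusted edgeR p under 0.05, 5 were lower and 0 higher, but the share of all tested genes under that p was not counted. After adjustment 2 fell (25%, against 6.54% of all tested genes called lower). These were TTR, transthyretin, with a log2 difference of -0.32 ± 0.0698 (s.e., edgeR adjusted p = 0.00921), and APOA1, an apolipoprotein, with one of -0.26 ± 0.0811 (s.e., edgeR adjusted p = 0.0483). APOA1 lost its call on the omission of any library but vehicle replicate 2 (edgeR adjusted p between 0.0829 and 0.168). ALB, the most abundant per length, had a log2 difference of -0.49 ± 0.170 (edgeR adjusted p = 0.0764).

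Of 10 neuroendocrine markers, 8 were too low to test. Among their defining transcription factors, NEUROD1 and NKX2-2 had 0 counts in all 6 libraries, ISL1 and RFX6 had 1 each over all libraries, and INSM1 had 3. The summed level of the list was 51.4 to 58.4 CPM with vehicle and 63.1 to 68.3 CPM with glycine. Most of this was ENO2, neuronal enolase, which rose from 42.1, 46.6 and 48.8 CPM to 58.5, 59.3 and 56.5 CPM. Its log2 change was 0.34 ± 0.0692 (s.e., edgeR adjusted p = 0.00578), and it is also a glycolytic enzyme of many cultured lines. SYP, synaptophysin, the other tested marker, lay the opposite way, at 9.07, 8.91 and 9.23 CPM with vehicle and at 6.82, 8.71 and 6.51 CPM with glycine. The groups of SYP did not overlap, and it was not called (log2 difference -0.29 ± 0.114 s.e., edgeR adjusted p = 0.115, unadjusted p = 0.0237).

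Of 6 fibroblast and blood cell markers, 4 were tested, 2 rose and 1 fell. Of all tested genes, 6.71% were called higher and 6.54% lower. The summed level of the 6 markers was 32.8 to 36.8 CPM with vehicle and 26.9 to 27.9 CPM with glycine. COL1A1, a collagen chain, rose by 1.03 ± 0.151 (s.e., edgeR adjusted p = 0.000585) and PDGFRB, a growth factor receptor, fell by 0.66 (s.e. 0.0811, edgeR adjusted p = 0.000137) on the log2 scale. CD68, a macrophage marker, rose by 0.63 ± 0.164 (s.e., edgeR adjusted p = 0.0226), and other genes share 85.8% of its exon bases. DESeq2 did not call CD68 (adjusted p = 0.0532), nor did edgeR without any 1 library other than vehicle replicate 3 (adjusted p between 0.0573 and 0.0845). PTPRC, the defining marker of blood cells, had 9 counts in all. The part of ENO2, COL1A1 or the other markers in the change of VGF was not tested.

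**Figure D5:**
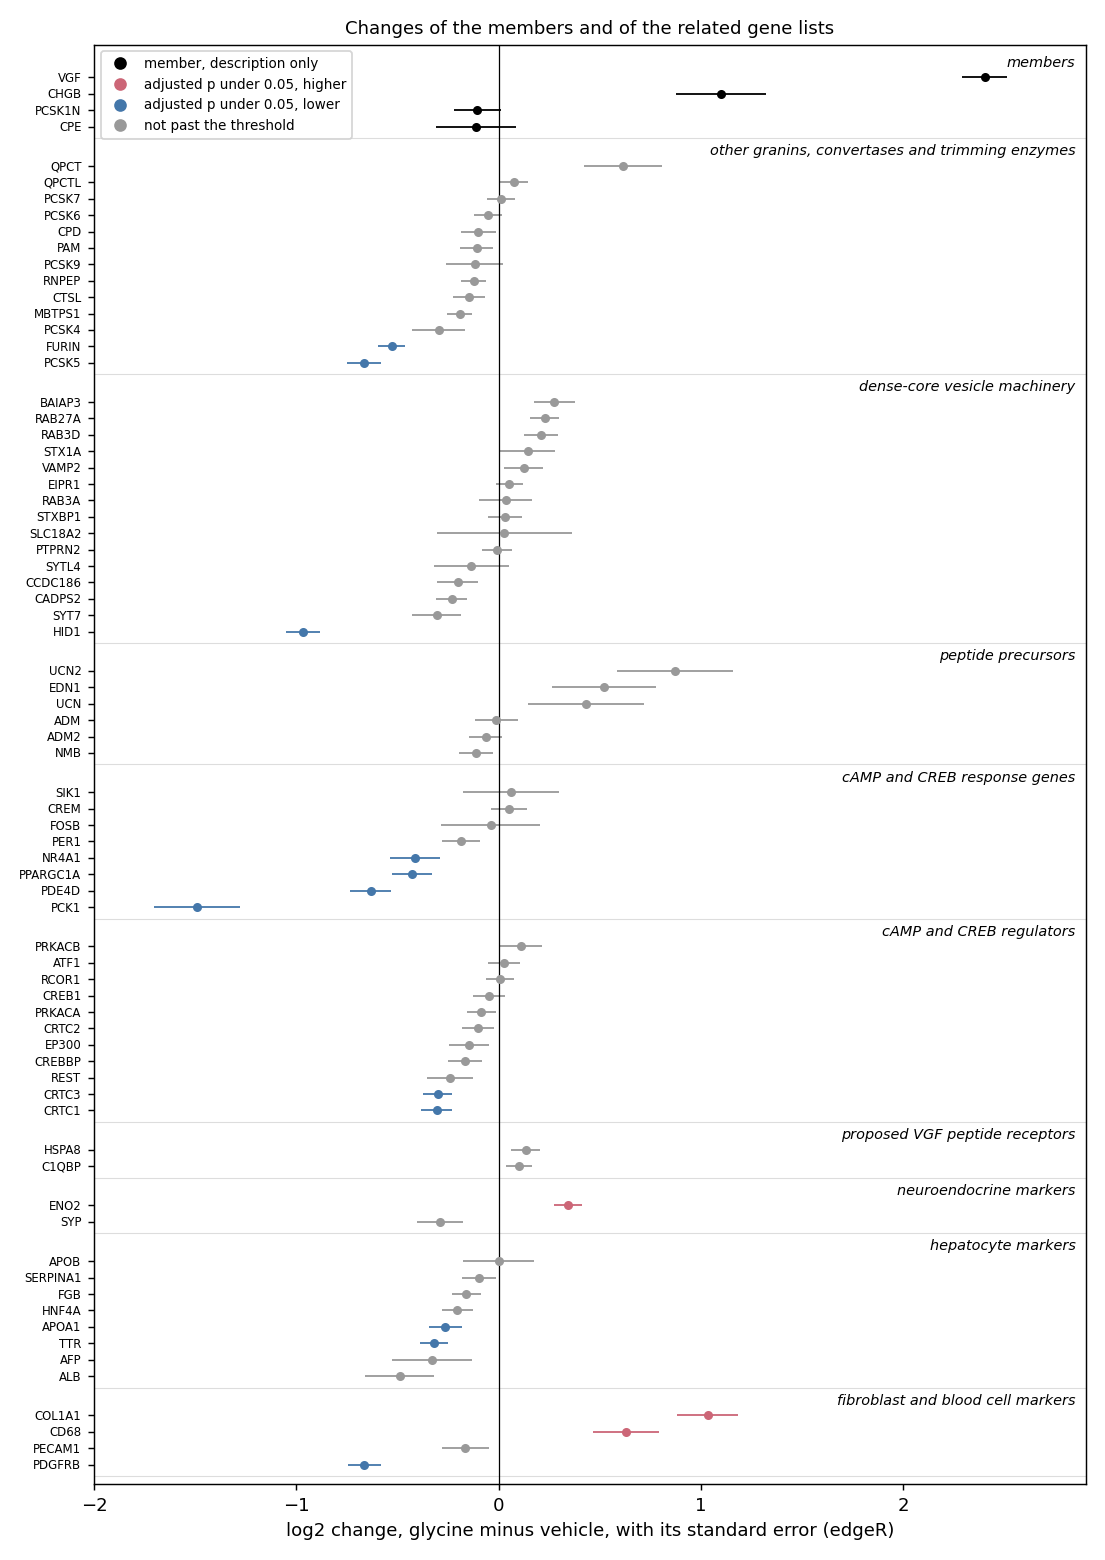
Log2 change, glycine minus vehicle, ± s.e. for every tested gene of each list, with the called genes in colour and the 4 tested members in black as a description only. VGF at 2.40 and CHGB at 1.10 stand to the right, whereas the called cyclic AMP response genes and HID1, FURIN and PCSK5 lie to the left of 0.

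Over all 9 lists outside the 8 genes, 69 of 119 genes were tested, 3 rose and 12 fell, a share called of 21.7% against 13.3% of all tested genes. The median log2 change was -0.10, and 43 of the 69 values were below 0. VGF had a larger positive log2 difference than any called gene of these lists, while those of CHGB (1.10 ± 0.222 s.e.) and COL1A1 (1.03 ± 0.151 s.e.) lay within their errors. The lists were written with earlier results of these data known, the response of VGF among them, so the share called is a description.

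The genes most like VGF across the 6 libraries were found by the Pearson correlation of log2 CPM, over 9110 other genes that averaged 10 CPM or more. The closest was TAGLN, an actin-binding protein (r = 0.9988), followed by TOP1, a DNA topoisomerase (0.9987), OTUB2, a deubiquitinase (0.9983), AQP3, an aquaglyceroporin (0.998), and ACTA1, skeletal actin (0.9971). The log2 difference between the groups was 1.84 for TAGLN, 1.68 for ACTA1, 1.26 for AQP3 and 0.55 for OTUB2. All of these were called higher, as were 6.71% of all tested genes. For TOP1 the log2 difference was 0.15 ± 0.0587 (s.e.), which was not called (edgeR adjusted p = 0.105). TAGLN stood at 54.3, 65.0 and 60.3 CPM with vehicle and at 209, 232 and 200 CPM with glycine, and like VGF it was highest in vehicle replicate 2 and in glycine replicate 2. PCSK7 shares 4386 exon bases with TAGLN and another gene on the opposite strand, and the strand setting of the counts is not known. A further description of how common such likeness is comes from the count of genes with r of at least 0.95, which was 297, while 299 had r of -0.95 or below. The 6 points fall into 2 groups by treatment, which any gene that changed shares, so no p-value is given for r. Calls of genes picked in this way follow largely from the choice, and nothing is read from them.

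The nearest tested neighbours of VGF on the chromosome were not called. AP1S1, 913 bases away, had a log2 difference of 0.11 ± 0.0674 (s.e., edgeR adjusted p = 0.314), and MOGAT3, 29414 bases away, one of 0.18 ± 0.0780 (s.e., edgeR adjusted p = 0.144). Beside CHGB, SHLD1 rose by 0.31 ± 0.0920 on the log2 scale (s.e., edgeR adjusted p = 0.0429) at a distance of 47518 bases, and TRMT6 was not called.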

How the data were processed

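RNA was sequenced from HepG2 cells after 24 h with vehicle or 10 mM glycine, with 3 libraries per group. The deposited files hold raw counts per gene, not normalized, from the authors, whose processing notes name Trimmomatic 0.36, STAR 2.5.2b, featureCounts (Subread 1.5.2) and GRCh38. The strand setting and annotation release are not given in the sources used here, so reads of antisense or overlapping genes could not be told apart. All 8 members matched GENCODE release 29 by identifier and position.

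Library totals were 34960947, 35643313 and 35861020 counts with vehicle and 31795489, 58815986 and 41624109 with glycine. Levels and limits from low counts cover counting error only, since the reads carried no molecular identifiers and can be copies of 1 molecule. CPM used library totals scaled by the TMM method of edgeR, except the worth of 1 and 3 counts, which used raw totals. TPM used the length column of the files.

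The quasi-likelihood test of edgeR 4.0.16 (R 4.3.3, two-sided) was run on 15492 genes that passed its expression filter (minimum count 10, minimum total 15), with the group alone in the model and Benjamini-Hochberg adjustment at 0.05. The standard error is the log2 change divided by the square root of F. The procedure was tested on simulated data. Log2 CPM for correlations had a prior count of 2.

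The members and lists were chosen with earlier results of these data known. Genes named are the 8 members, every listed gene past the threshold, the tested gene with the highest mean TPM of each list, and the 5 genes most correlated with VGF. Others named were chosen after their values were seen. Alternatives were other scaling factors (DESeq2 size factors, upper quartile, total count), no low-count filter or one of 1 CPM in 3 libraries, DESeq2 1.42.0, limma 3.58.1 with voom, a replicate block, and the omission of each library in turn. The values of 1 marker gene are not reported here.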

Additional observations from a re-analysis of the deposited data

How the results depend on the processing

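VGF kept its direction under every alternative run, with a log2 change of 2.39 to 2.42 across scaling, filter, tool and block, and of 2.29 to 2.52 when 1 library was left out. CHGB ranged from 1.09 to 1.18 and, with 1 library left out, from 0.82 to 1.27. CPE ranged from -0.12 to -0.07 and PCSK1N from -0.11 to -0.09 across the other settings. With 1 library left out CPE ranged from -0.36 to 0.07 and PCSK1N from -0.24 to 0.04. The signs that turned were those of CPE without vehicle replicate 1 (0.068) and without glycine replicate 1 (0.021), and that of PCSK1N without vehicle replicate 3 (0.044). The cause was not tested.

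Libraries that shared a replicate number did not vary together. The correlation of same-numbered deviations was -0.06, -0.03 and -0.0026, and the other pairs ran from -0.20 to 0.21. Glycine replicates 1, 2 and 3 correlated positively only with vehicle replicates 2, 3 and 1, respectively (0.21, 0.18 and 0.21). The block used the replicate numbers, and a pairing under other numbers was not tested. With a replicate block, 866 genes were higher and 918 lower, VGF was at 2.40, CHGB at 1.13, CPE at -0.07 and PCSK1N at -0.09, and the related lists had 4 genes higher and 12 lower. Among the related genes named as called, APOA1 was the only one to lose its call with the block (adjusted p = 0.0804).

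Over all genes, leaving out 1 library gave 587 to 926 higher, against 1040, and 655 to 1010 lower, against 1013. The lowest counts higher came without glycine replicate 3 (587), vehicle replicate 1 (590), glycine replicate 1 (594) and glycine replicate 2 (617, with 655 lower). Of the related genes, 3 were called higher in the main test, and 5 with total count scaling and 5 with no low-count filter. With 1 library left out the related genes called ranged from 2 to 4 higher and from 8 to 14 lower, against 12. NR4A1 lost its call with total count scaling (adjusted p = 0.0632). APOA1 lost it with upper quartile scaling (0.0513), total count scaling (0.0543) and the filter of 1 CPM (0.05004). CHGA, SCG2, PCSK1 and SCG5 are limited by depth.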

Other observations

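The CRE was counted in the promoter windows of the other lists. It was present in 1 of 13 dense-core vesicle genes with a window (SLC18A2), in 2 of 27 peptide precursor genes (SST and CARTPT) and in 1 of 10 cyclic AMP and CREB response genes (CREM). The other granin, convertase and trimming genes held it in 0 of 15. SST and CARTPT were too low to test in HepG2 cells, and SLC18A2 and CREM were not called (edgeR adjusted p = 0.973 and 0.756).

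Across the genome, 414 tested genes other than VGF, CHGB, PCSK1N and CPE had a promoter window with the CRE. Of these, 38 were called higher with glycine (9.18%) and 15 lower (3.62%), and their median log2 difference was 0.03. Among the 11016 tested genes with any window, 7.02% were higher and 6.63% lower, with a median of 0.01. This comparison was added after the windows of VGF, CHGA and PCSK1 had been read, and the difference between the shares was not tested.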
